A study of Mus musculus with 12 samples.

Results

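The 7 genes described here cover the activation of thyroid hormone, its entry into the brain, its binding and its receptors, with a pair of response genes. They are Dio2, Slco1c1, Crym, Thra, Thrb, Klf9 and Hr, and all 7 were present among the 14881 genes of the count table. They were selected by name and function from a list drawn up with earlier results of these data known. Their contrasts are therefore given as descriptions, with the adjusted p-values that the fit over all genes returned. RNA was sequenced from aged male APPswe mice, a strain that carries the Swedish mutation of the human amyloid precursor protein, at 22 to 26 months of age. Each mouse had received 5 µL of an adeno-associated virus into the cisterna magna and weekly intraperitoneal antibody at 40 mg/kg, and each library came from 1 mouse per the series description. The eGFP+mIgG group had AAV1-CMV-eGFP and the control antibody mIgG, and the eGFP+mAdu group had the same vector with mAducanumab, an antibody against amyloid beta. The mVEGF-C+mIgG and mVEGF-C+mAdu groups had AAV1-CMV-mVEGF-C, which expresses the lymphatic growth factor VEGF-C from a ubiquitous promoter, with the same antibodies. There were 4 groups of 3 mice, numbered 1 to 3, 4 to 6, 7 to 9 and 10 to 12 in that order. No untreated mice and no mice without the APPswe transgene were among these samples, so all groups share the transgene, a vector and an antibody.

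The thyroid gland releases mainly thyroxine, a prohormone. In the brain, thyroxine crosses the capillary endothelium through carriers such as the transporter encoded by Slco1c1 and is converted in astrocytes to triiodothyronine, the active hormone, by type 2 deiodinase, the product of Dio2. Triiodothyronine reaches neurons, where it is inactivated by type 3 deiodinase or binds the nuclear receptors encoded by Thra and Thrb, which act on target genes such as Klf9 and Hr.

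The promoter stretches of the pair of genes with the largest differences between groups are shown for reference, from RefSeq annotation of GRCm38.p6. Each holds the 250 bases before the annotated start, read on the strand of the gene, and capitals mark a motif found by search. The Dio2 stretch lies on the minus strand at chr12:90739039-90739288, and the Slco1c1 stretch on the plus strand at chr6:141524104-141524353. The gene coordinates given further below are from another annotation, GENCODE M21, whose starts differ from these. There Dio2 begins at 90738438 on the minus strand, so the distances given here refer to the RefSeq start only.
Dio2: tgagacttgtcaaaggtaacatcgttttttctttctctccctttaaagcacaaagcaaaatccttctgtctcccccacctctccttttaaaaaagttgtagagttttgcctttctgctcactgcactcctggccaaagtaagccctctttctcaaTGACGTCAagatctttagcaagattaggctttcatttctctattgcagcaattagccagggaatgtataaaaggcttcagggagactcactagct
Slco1c1: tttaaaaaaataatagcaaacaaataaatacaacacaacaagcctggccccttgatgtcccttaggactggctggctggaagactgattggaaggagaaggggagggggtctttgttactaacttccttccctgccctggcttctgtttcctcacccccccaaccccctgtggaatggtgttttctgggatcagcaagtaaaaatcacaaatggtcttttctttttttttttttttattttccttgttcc
The motifs below were searched on both strands in the 300 bases from 250 before to 50 after each start. The nuclear receptor core motif AGGTCA was in neither of these windows, although 16.3% of 32851 promoters of that length held it. Its direct repeat with a spacer of 4 bases, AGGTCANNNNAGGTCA, was in neither as well and was in 0.0152% of all promoters. The Dio2 stretch held the palindromic cAMP response element TGACGTCA at 95 bases before the start, a motif found in 1.79% of promoters. Slco1c1 held the E-box CACGTG, found in 7.15% of promoters, at 19 bases after the start, outside the printed stretch. Thrb had 2 annotated starts, and AGGTCA stood 184 bases before the first of them and CACGTG 193 bases before the second. Klf9 held none of these motifs, and promoters were matched for 4 of the 7 genes. The cAMP element and the E-box were added to the search after the expression data were seen. A match is a description of these letters, and none of the expression values bears on whether a factor binds there.

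Library totals ran from 23213612 to 29295266 reads, and the common biological coefficient of variation was 5.16%. The sample source label names the meninges, whereas the series description gives the hippocampus of 1 hemisphere. All 12 listed markers of CA1 and CA3 pyramidal neurons were measured, at a summed 1810 to 1980 CPM, and all 10 listed markers of meningeal and perivascular fibroblasts at a summed 316 to 582 CPM. CPM are read counts divided by the TMM-scaled library total, the scale of every level given here. Mice 3, 6, 9 and 12 ranked second of the 3 mice of their group in 76.4%, 70.7%, 73% and 77% of the genes whose range within the group exceeded 4 counting standard deviations. Each of the other 8 mice ranked second in at most 16.2% of them. Whether these 4 libraries share material with the other libraries of their group was not tested. If they did, the SDs, SEs and p-values given here for 3 mice a group would be too small, so contrasts are also given without these 4 libraries.

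Dio2, the enzyme that makes triiodothyronine within the brain, had the lowest levels in the doubly control-treated mice and the highest in the mice given both treatments. It stood at 43.8, 54.7 and 50.1 CPM in mice 1 to 3 with eGFP+mIgG. In the eGFP+mAdu mice it was at 56.7, 59.7 and 59.0 CPM, and in the mVEGF-C+mIgG mice at 54.0, 60.5 and 59.7 CPM. The 3 mice with mVEGF-C+mAdu were at 67.4, 69.4 and 68.2 CPM, above all 9 other mice. Of all genes, 16.5% separated this group from mVEGF-C+mIgG, 21.7% from eGFP+mAdu and 27.2% from eGFP+mIgG, in either direction. The share that separated it from all 9 mice at once was not counted. The values of the eGFP+mAdu group lay within the range of the mVEGF-C+mIgG group, and the range of the eGFP+mIgG group reached into that of the mVEGF-C+mIgG group but not into that of the eGFP+mAdu group, a separation seen in that contrast for 15.4% of all genes. Group means were 49.6 ± 5.47, 58.5 ± 1.55, 58.1 ± 3.55 and 68.4 ± 1.03 CPM (SD, n = 3 each). The gene (ENSMUSG00000007682) lies on chromosome 12 from 90724552 to 90738438 (mm10, minus strand) and received 1177 to 1755 reads per library. It shares 100 of its 5815 exon bases with Gm26512 on the other strand, and whether reads were counted by strand is not stated in the labels.

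**Figure D1:**
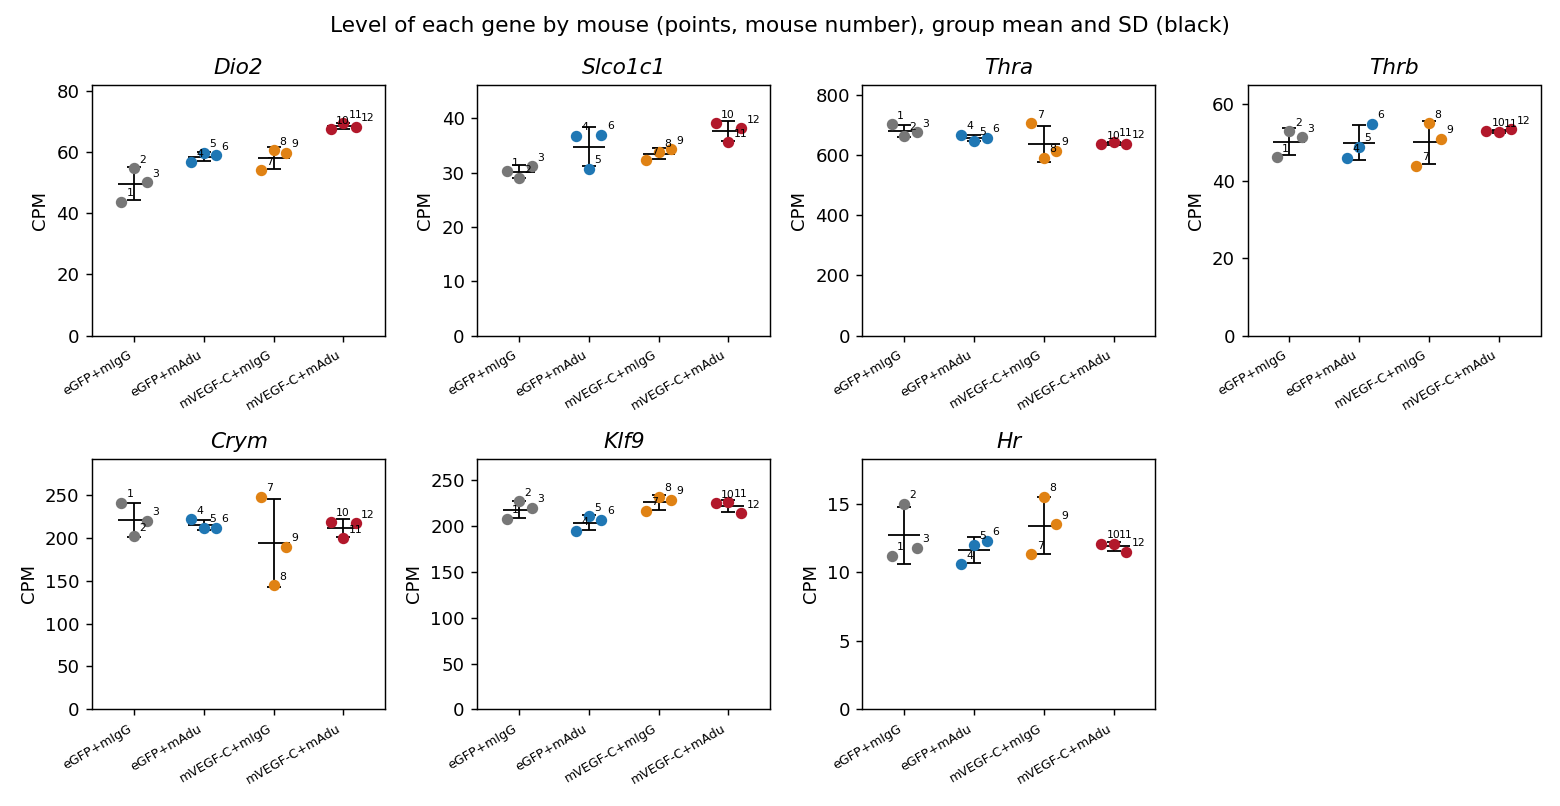
Level of each of the 7 genes in CPM (y axis, from 0, on its own scale per gene) by group (x axis), with a point for each mouse labelled by its number and black bars for the group mean and SD over 3 mice. Dio2 reached 67.4 to 69.4 CPM with mVEGF-C+mAdu and at most 60.5 CPM in the other 9 mice, while Thra, Thrb, Crym, Klf9 and Hr passed in no contrast.

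The combined treatment against the double control gave a Dio2 fold of 1.38 (log2 0.47, SE 0.0644), with an adjusted p of 0.0042 in edgeR's quasi-likelihood test over all genes. By p-value the gene ranked 8 of 14881 in that contrast, in which 2.18% of all genes passed at an adjusted p under 0.05. Either treatment alone gave about the same difference on the log2 scale. The antibody differed from mIgG by 0.24 (SE 0.0647, adjusted p = 0.24) under eGFP and by 0.23 (SE 0.0637, adjusted p = 0.135) under mVEGF-C. The mVEGF-C vector differed from eGFP by 0.23 under mIgG (SE 0.0649, adjusted p = 0.474) and by 0.23 under mAducanumab (SE 0.0635, adjusted p = 0.143). None of these 4 contrasts passed for Dio2, and the share of all genes that passed in them was 0.0336%, 0.208%, 0.0403% and 0.047%. The interaction, which is the departure from the sum of the separate differences, was -0.01 (SE 0.0908, adjusted p = 0.998), in a contrast where 0.0134% of genes passed. Averaged over the other treatment, with 6 mice on each side, Dio2 rose by 0.24 with the antibody (63.4 ± 5.53 against 53.8 ± 6.23 CPM, SE 0.0454, adjusted p = 0.0352) and by 0.23 with the vector (63.2 ± 6.09 against 54.0 ± 6.07 CPM, SE 0.0454, adjusted p = 0.0387). The contrasts share libraries, so these values are not separate pieces of evidence. Of all genes, 0.571% passed in the antibody contrast over both vectors and 0.39% in the vector contrast over both antibodies.

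Leaving out any 1 library kept the combined call of Dio2, with log2 values from 0.39 without mouse 1 to 0.54 without mouse 2 and adjusted p from 0.00117 to 0.0331. The averaged calls were less firm: the antibody call was lost without any 1 of mice 1, 3, 4, 6, 9, 10, 11 and 12, and the vector call without any 1 of these or mouse 8, with adjusted p up to 0.115 and 0.142. Without mice 3, 6, 9 and 12 together the combined difference was 0.48 (SE 0.100), and the adjusted p was 0.56 in the smaller table of 8 libraries. Library trends of expression with GC content also moved with the groups, from 0.022 to 0.049 on the log2 scale per 10 GC points with eGFP+mIgG and from -0.092 to -0.012 with mVEGF-C+mAdu. Dio2 has a GC content of 43.4% against a median of 49.7% over genes. After correction for GC content and length it kept the combined call (0.41, adjusted p = 0.00951) and the averaged antibody call (0.22, adjusted p = 0.0209), and the averaged vector difference was 0.19 (adjusted p = 0.0767).

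**Figure D2:**
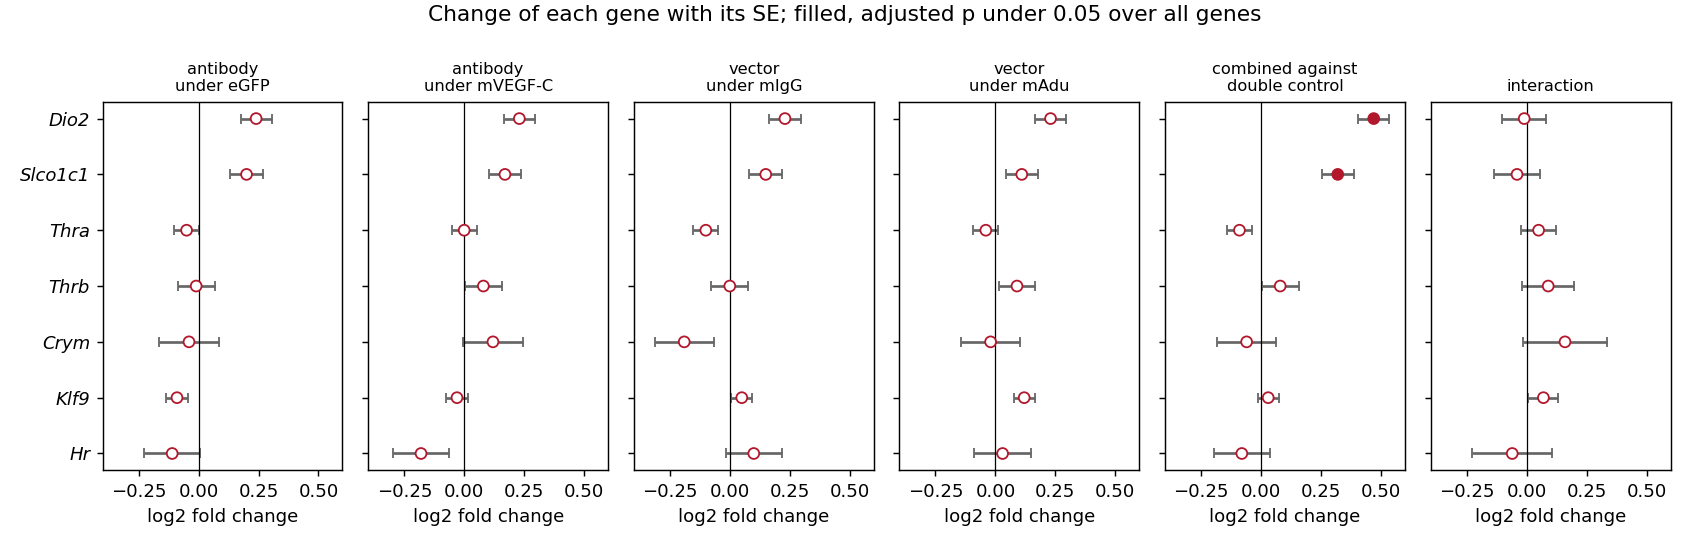
Log2 fold change (x axis) of the 7 genes (y axis) in the 4 separate contrasts, the combined contrast and the interaction, with bars for the SE of the edgeR fit and filled points where the adjusted p over all genes was under 0.05. Dio2 lay at 0.23 or 0.24 in each separate contrast, at 0.47 in the combined contrast and at -0.01 in the interaction, and Slco1c1 lay at 0.11 to 0.20, 0.32 and -0.04.

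In these bulk samples fewer cells of a type and less RNA per cell cannot be told apart. The 12 listed astrocyte markers were all measured, and their summed level was 5550 to 6210 CPM with eGFP+mIgG and 5860 to 6210 CPM with mVEGF-C+mAdu. Relative to the mean of these markers, on the centred log2 scale, Dio2 was at -0.34 to -0.17 with eGFP+mIgG. It was at -0.01 to 0.00 with eGFP+mAdu, at -0.07 to 0.04 with mVEGF-C+mIgG and at 0.19 to 0.29 with mVEGF-C+mAdu. The means of the double control and combined groups were -0.24 and 0.24 on this scale, so the separation of these groups was as large relative to the mean of the astrocyte markers as in CPM. That mean averages markers that moved both ways. With the combined treatment 5 of the 12 differences were positive and 7 negative, between -0.34 and 0.19. At an unadjusted p under 0.05, 3 of the 12 were higher and 2 lower, beside 20.4% of all genes. Of the 12 markers 1 fell with the combined treatment, Aldh1l1, which encodes a folate enzyme of astrocytes (log2 -0.21, SE 0.0514, adjusted p = 0.0457), and none rose. Aldh1l1 lost its call after GC and length correction (-0.17, adjusted p = 0.104), without mice 3, 6, 9 and 12 (adjusted p = 0.563) and without any 1 of mice 1, 3, 6, 9, 10, 11 and 12 (adjusted p up to 0.206). Markers of some other cell types moved with the groups as well: all 10 meningeal and perivascular fibroblast markers had negative combined differences (median -0.57), with a summed 437 to 457 CPM in the double control and 335 to 341 CPM in the combined group. None of the 10 passed by edgeR, 2 did by DESeq2, and 6 had an unadjusted p under 0.05, beside 20.4% of all genes. Of 8 microglia markers 7 had negative differences and 1 fell, the complement gene C1qa (-0.43, SE 0.103, adjusted p = 0.042), and the list's mean level was -0.08 to 0.08 in the double control and -0.19 to -0.15 in the combined group. The C1qa call was lost after GC and length correction (-0.34, adjusted p = 0.171), without mice 3, 6, 9 and 12 (adjusted p = 0.56) and without any 1 of mice 1, 2, 3, 6, 9, 10, 11 and 12 (adjusted p up to 0.162). Of 9 dentate granule cell markers 8 had negative differences (median -0.23), where edgeR called 0 and DESeq2 called 2, and 6 had an unadjusted p under 0.05. Of 14 immediate early genes 6 rose with the combined treatment, where 2.18% of all genes passed, and 5 passed after GC and length correction. Without mice 3, 6, 9 and 12 only 2 genes of the whole table passed in that contrast. With the vector over both antibodies 7 of the 14 rose, where 0.39% of all genes passed. With the antibody over both vectors 1 of the 14 fell and none rose, where 0.571% of all genes passed. Pyramidal, oligodendrocyte, striatal and brain endothelial markers had combined medians of -0.02, -0.07, -0.1 and 0, and edgeR called 0 of them. The part of all these lists in the Dio2 difference was not tested.

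**Figure D3:**
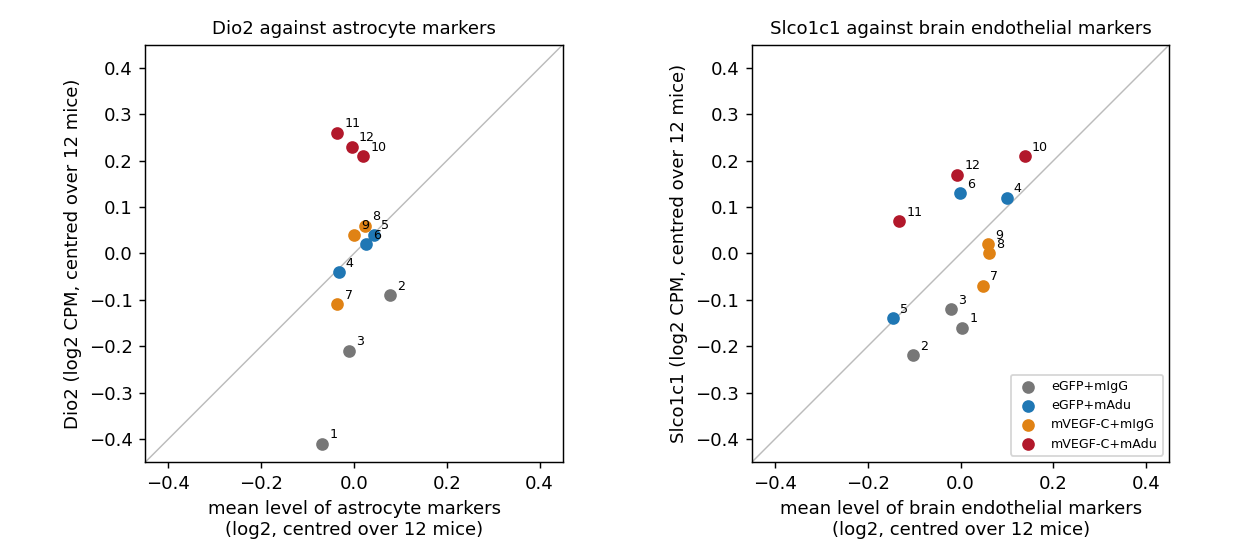
Level of Dio2 against the mean level of 12 astrocyte markers (left) and of Slco1c1 against that of 13 brain endothelial markers (right), both in log2 and centred over the 12 mice, with a point per mouse coloured by group and a grey line of equal deviation. The mean of the astrocyte markers spanned -0.07 to 0.08 over all mice, while Dio2 ran from 0.21 to 0.26 with mVEGF-C+mAdu and from -0.41 to -0.09 with eGFP+mIgG.

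The list of other deiodinases and of the machinery that inserts selenocysteine held 8 genes, of which 7 were measured, without Dio1. Selenocysteine is the amino acid at the active site of the enzymes encoded by Dio1, Dio2 and Dio3. It is not part of the iodotyrosine deiodinase encoded by Iyd, which was in this list and also among the listed pyramidal markers. None of the 7 passed in any of the 8 contrasts by edgeR or DESeq2, and at most 1 had an unadjusted p under 0.05 in a contrast. The share of all genes at an unadjusted p under 0.05 was 9.21% for the antibody under eGFP, 12.7% for the antibody under mVEGF-C, 7.91% for the vector under mIgG, 14.3% for the vector under mAducanumab and 20.4% for the combined treatment. It was 6.82% for the interaction, 15.5% for the antibody over both vectors and 16% for the vector over both antibodies, which are the shares to set beside such counts of the lists below. These deiodinase and selenoprotein genes had a median log2 difference of -0.09 with the combined treatment, in a range of -0.19 to 0.06, beside 0 over all genes. Dio3, the inactivating deiodinase, was weakly expressed at 3.61 ± 1.16, 4.40 ± 0.924, 2.88 ± 1.82 and 3.22 ± 0.653 CPM (SD, n = 3) in the order of the groups above. Its combined difference was -0.19 (SE 0.333, adjusted p = 0.798), and mouse 8 had the lowest value, 1.27 CPM. The precision for Dio3 is low, since it received 32 to 152 reads per library.

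Dio2 protein is also controlled by ubiquitin, through the ligases encoded by Wsb1 and March6 and the deubiquitinases encoded by Usp20 and Usp33. All 4 of these transcripts were measured and none passed in any contrast by edgeR or DESeq2, or had an unadjusted p under 0.05. Their combined log2 differences lay between -0.03 and 0.07.

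Slco1c1 encodes an organic anion transporter that carries thyroxine across the blood-brain barrier. Its levels were 30.3, 29 and 31.2 CPM with eGFP+mIgG and 36.8, 30.7 and 37.0 CPM with eGFP+mAdu. They were 32.3, 33.8 and 34.3 CPM with mVEGF-C+mIgG and 39.1, 35.6 and 38.2 CPM with mVEGF-C+mAdu. All mice of the combined group lay above all mice of the double control, and mouse 5 of the eGFP+mAdu group lay within the range of the double control. Group means were 30.2 ± 1.11, 34.8 ± 3.57, 33.5 ± 1.02 and 37.6 ± 1.84 CPM (SD, n = 3 each). The gene (ENSMUSG00000030235) lies on chromosome 6 from 141524368 to 141570177 (mm10) and had 624 to 1061 reads per library.

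Slco1c1 rose with the combined treatment by a fold of 1.25 (log2 0.32, SE 0.0674, adjusted p = 0.0300). With Dio2 it made 2 of the 7 genes that passed in that contrast, beside 2.18% of all genes, and none of the 7 fell. The antibody gave 0.20 under eGFP (adjusted p = 0.386) and 0.17 under mVEGF-C (adjusted p = 0.297), and the vector gave 0.15 under mIgG (adjusted p = 0.623) and 0.11 under mAducanumab (adjusted p = 0.457). Averaged over vectors the antibody difference was 0.19 (SE 0.0476), which did not pass in edgeR's test (adjusted p = 0.085) and passed in DESeq2's Wald test (adjusted p = 0.0413). The combined call was lost without any 1 of mice 1, 2, 3, 10 and 12, where adjusted p reached 0.125 while the log2 difference stayed between 0.29 and 0.36. It was also lost after GC and length correction (0.26, adjusted p = 0.0685; GC content of the gene 43.1%) and without mice 3, 6, 9 and 12 (0.33, adjusted p = 0.56).

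All 13 listed brain endothelial markers were measured, and none passed in the combined contrast by edgeR or DESeq2, while 2 had an unadjusted p under 0.05. Their summed level was 163 to 170 CPM with eGFP+mIgG and 159 to 187 CPM with mVEGF-C+mAdu. Relative to their mean, Slco1c1 was at -0.16 to -0.10, 0.00 to 0.13, -0.11 to -0.04 and 0.07 to 0.20 on the centred log2 scale in the 4 groups. The combined and double control groups thus stayed apart on this scale. Choroid plexus epithelium also carries the transporter, and the mean level of its 10 measured markers went the other way, from 0.01 to 0.16 with eGFP+mIgG to -0.66 to -0.18 with mVEGF-C+mAdu. The lowest of these was mouse 10, with mice 11 and 12 at -0.18 and -0.23. Of the 10 markers 1 passed in the combined contrast, Ttr, beside 2.18% of all genes. An unadjusted p under 0.05 was found for 3 of the 10, beside 20.4% of all genes. Aqp1 and Slc4a5 of that list of 12 had no row in the table.

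The other plasma membrane carriers of thyroid hormone comprised 7 listed genes, all measured. None passed in any contrast by edgeR or DESeq2, and 0 to 2 had an unadjusted p under 0.05 per contrast, beside 6.82% to 20.4% of all genes. With the combined treatment 6 of the 7 had negative differences and 1 a positive one, with a median of -0.07.

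Ttr, which encodes the thyroxine carrier transthyretin of cerebrospinal fluid and is made mostly in choroid plexus, was the only listed hormone carrier among the measured genes. It stood at 51.6 ± 21.9, 56.2 ± 8.99, 25.2 ± 5.28 and 16.6 ± 2.24 CPM (SD, n = 3). Its levels were 14.3 to 29.1 CPM in the 6 mice with mVEGF-C and 30.4 to 74.2 CPM in the 6 with eGFP. How many of all genes separate these 2 sets of mice was not counted. Ttr fell with the vector over both antibodies (log2 -1.39, SE 0.169, adjusted p = 0.00319), under mAducanumab (-1.76, adjusted p = 0.0176) and with the combined treatment (-1.62, adjusted p = 0.00895). The averaged call held with any 1 library left out. The combined call was lost without mouse 12 (adjusted p = 0.0502), the call under mAducanumab without any 1 of mice 4, 6, 11 and 12, and all of these calls without mice 3, 6, 9 and 12 (adjusted p from 0.56 to 0.876), where the differences were -1.41 over both antibodies, -1.72 under mAducanumab and -1.65 with the combined treatment. Because Ttr is also the leading choroid plexus marker, its fall and that of the choroid plexus list are the same measurement in part, and their part in the Slco1c1 difference was not tested.

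**Figure D4:**
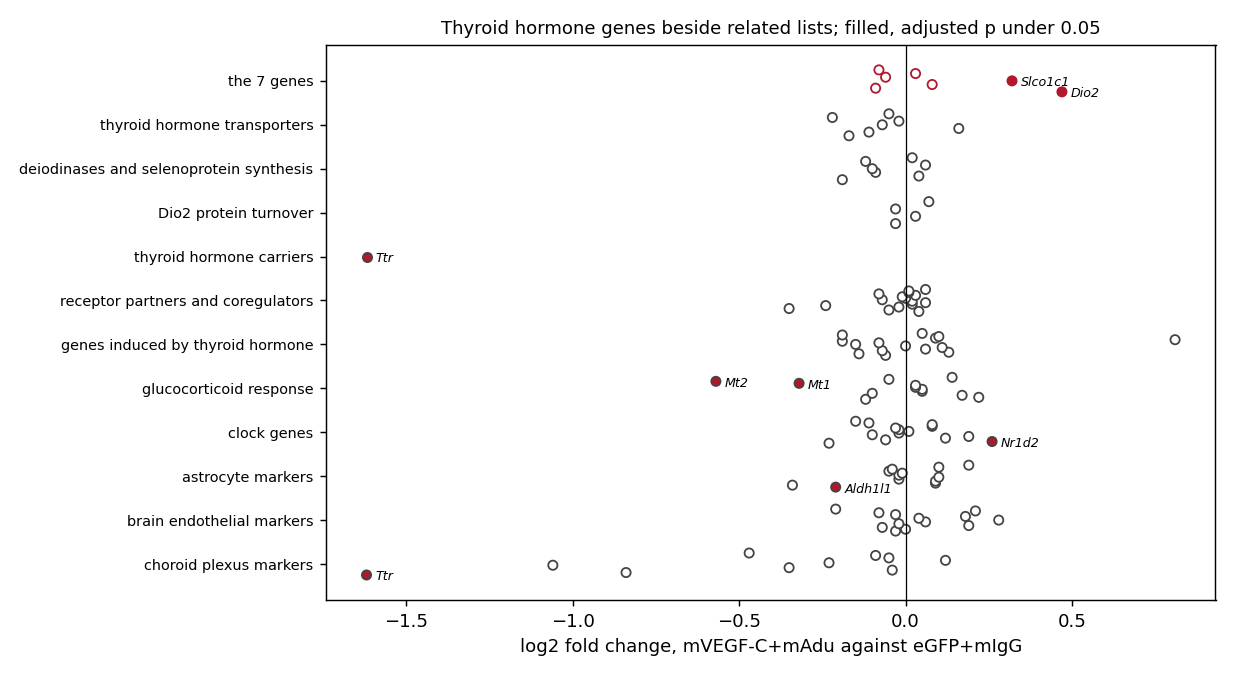
Log2 fold change of the combined treatment against the double control (x axis) for the 7 genes and for related lists and marker lists (y axis), with a point per measured gene and filled, named points where the adjusted p was under 0.05. Dio2 (0.47) and Slco1c1 (0.32) lie to the right of every other transporter and deiodinase gene, and Ttr (-1.62) is far to the left in the 2 lists that hold it.

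Crym encodes mu-crystallin, a cytosolic protein that binds triiodothyronine and is abundant in some forebrain neurons. Its levels were 241, 202 and 220 CPM with eGFP+mIgG and 222, 212 and 212 CPM with eGFP+mAdu. With mVEGF-C+mIgG they were 248, 145 and 190 CPM, and with mVEGF-C+mAdu 219, 200 and 217 CPM. Mice 7 and 8 of 1 group held both the highest and the lowest value of all 12. The groups overlapped in every contrast, also in those without these mice. Crym (ENSMUSG00000030905, chromosome 7 from 120186380 to 120202111, mm10) passed in none of the 8 contrasts. Its combined difference was -0.06 (SE 0.124, adjusted p = 0.824). The largest difference was for the vector under mIgG at -0.19 (SE 0.124, adjusted p = 0.736), which was -0.40 without mouse 7 and -0.01 without mouse 8.

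Thra encodes the receptor that predominates in brain, together with a splice form that does not bind the hormone, and the gene-level counts do not separate the 2 forms. It had 703, 665 and 677 CPM with eGFP+mIgG and 668, 648 and 659 CPM with eGFP+mAdu. It had 707, 592 and 615 CPM with mVEGF-C+mIgG and 636, 645 and 638 CPM with mVEGF-C+mAdu. The combined group lay just below the double control without overlap, and mice 7 and 8 again spanned the range of all groups. The combined difference was -0.09 (SE 0.0514, adjusted p = 0.332), and Thra passed in none of the 8 contrasts. After GC and length correction the combined difference of Thra was -0.001 (adjusted p = 0.994). The GC content of the gene is 59.8%, against a median of 49.7% over genes. Groups did not overlap in the combined contrast for 3 of the 7 genes, Dio2, Slco1c1 and Thra, beside 27.2% of all genes. Thra (ENSMUSG00000058756, chromosome 11 from 98740638 to 98769006, mm10) shares 263 of its 4614 exon bases with Nr1d1 on the other strand.

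Thrb encodes the second receptor. It was measured at 46.3, 53.0 and 51.5 CPM with eGFP+mIgG, at 46.1, 49.0 and 55.0 CPM with eGFP+mAdu, at 44.1, 55.1 and 51.1 CPM with mVEGF-C+mIgG and at 53.0, 52.7 and 53.5 CPM with mVEGF-C+mAdu. The last group had the smallest spread, with an SD of 0.376 CPM against 3.56 to 5.56 CPM in the others, and its values lay inside the range of the other 9 mice. Thrb (ENSMUSG00000021779, chromosome 14 from 17660261 to 18038090, mm10) passed in no contrast, with a combined difference of 0.08 (SE 0.0765, adjusted p = 0.606) and an interaction of 0.09 (SE 0.108, adjusted p = 0.951).

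The receptors act as dimers with retinoid X receptors and recruit corepressors or coactivators, and all 16 listed partners and coregulators were measured. None passed in any contrast by edgeR or DESeq2, and 0 to 2 of the 16 per contrast had an unadjusted p under 0.05, beside 6.82% to 20.4% of all genes. Their median combined difference was 0, with 8 positive and 8 negative values between -0.35 and 0.06. Rxra, a retinoid X receptor, had 43.1 ± 1.08, 45.3 ± 0.797, 39.4 ± 1.39 and 44.4 ± 1.11 CPM (SD, n = 3). It was 0.12 higher with the antibody over both vectors (SE 0.0311, adjusted p = 0.0852), a difference that did not pass. Ncor1, the nuclear receptor corepressor, differed by -0.02 with the combined treatment (SE 0.0392, adjusted p = 0.814).

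Klf9 encodes a zinc finger factor that is induced directly by the thyroid hormone receptors and also by glucocorticoids. It was at 208, 227 and 220 CPM with eGFP+mIgG and at 195, 211 and 207 CPM with eGFP+mAdu. It was at 217, 232 and 229 CPM with mVEGF-C+mIgG and at 225, 226 and 214 CPM with mVEGF-C+mAdu. The mVEGF-C+mAdu mice lay above the eGFP+mAdu mice without overlap, by 0.12 on the log2 scale (SE 0.0443, adjusted p = 0.235), in a contrast where 21.7% of all genes had groups without overlap, while the combined contrast gave 0.03 (SE 0.0443, adjusted p = 0.797). Over both antibodies the vector difference was 0.09 (SE 0.0313, adjusted p = 0.208), and the antibody difference over both vectors was -0.06 (SE 0.0313, adjusted p = 0.379). Klf9 (ENSMUSG00000033863, chromosome 19 from 23141226 to 23168134, mm10) passed in no contrast.

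Hr encodes Hairless, a corepressor of these receptors whose gene is itself a target of the hormone in developing brain. It had the lowest counts of the 7 genes, 278 to 389 reads per library. Its levels were 11.2, 15.0 and 11.8 CPM with eGFP+mIgG, 10.6, 12.0 and 12.3 CPM with eGFP+mAdu, 11.3, 15.5 and 13.5 CPM with mVEGF-C+mIgG and 12.1, 12.1 and 11.5 CPM with mVEGF-C+mAdu. The highest values were in mice 2 and 8, both with mIgG, and the groups overlapped in every contrast. Hr (ENSMUSG00000022096, chromosome 14 from 70552212 to 70573548, mm10) passed in no contrast, with -0.08 for the combined treatment (SE 0.118, adjusted p = 0.751) and -0.14 for the antibody over both vectors (SE 0.083, adjusted p = 0.427).

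Of 16 further genes known to be induced by thyroid hormone in brain or liver, 15 were measured, without Cbr2. None passed in the combined contrast by edgeR or DESeq2, where 2 had an unadjusted p under 0.05 beside 20.4% of all genes, and 8 differences were positive and 7 negative around a median of 0. Nrgn, which encodes the synaptic calmodulin-binding protein neurogranin, was the member of this list that passed in a contrast. Its levels were 243 to 264 CPM in the 6 mice with mAducanumab and 266 to 295 CPM in the 6 with mIgG. The share of all genes that separate these 2 sets of mice was not counted. Nrgn fell with the antibody over both vectors by 0.16 on the log2 scale (SE 0.0304, adjusted p = 0.0352), a sign opposite to that of Dio2 in the same contrast. The Nrgn call held after GC and length correction (-0.13, adjusted p = 0.0413), was lost without any 1 of mice 1, 3, 4, 6, 10 and 12 (adjusted p up to 0.125) and was lost without mice 3, 6, 9 and 12 (adjusted p = 0.835). In that contrast 9 of the 9 measured dentate granule cell markers and 9 of the 12 pyramidal markers had negative differences as well, and their part in the Nrgn difference was not tested. Dbp, a clock output gene on this list, was at 50.6 ± 1.61, 50.6 ± 0.819, 49.3 ± 3.18 and 48.5 ± 2.47 CPM (SD, n = 3), with a combined difference of -0.06 (SE 0.0524, adjusted p = 0.561).

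Klf9 also belongs to the glucocorticoid response, and Thra shares exon sequence with the clock gene Nr1d1, so both programmes were measured. Of 12 glucocorticoid response genes 2 fell with the combined treatment, the metallothionein genes Mt1 (log2 -0.32, SE 0.0583, adjusted p = 0.0173) and Mt2 (-0.57, SE 0.119, adjusted p = 0.0277), and none rose. The 2 metallothioneins also bind metal ions and respond to zinc, and the median of the list was 0.03. Mt1 fell as well with the antibody over both vectors (-0.21, SE 0.0411, adjusted p = 0.0383). Each combined call of these genes was lost without any 1 of mice 1, 3, 10 and 12 (adjusted p up to 0.0973 for Mt1 and 0.141 for Mt2) and without mice 3, 6, 9 and 12 (adjusted p = 0.56 for both). The averaged Mt1 call was lost without any 1 of mice 1, 3, 4, 6, 9, 10 and 12, with adjusted p up to 0.136, and without mice 3, 6, 9 and 12 (adjusted p = 0.835). Of 14 clock genes 1 rose with the combined treatment, Nr1d2 (0.26, SE 0.0636, adjusted p = 0.0492), which was 0.19 after GC and length correction (adjusted p = 0.114) and passed in 3 of 12 fits with 1 library left out. Nr1d1 differed by -0.23 (SE 0.108, adjusted p = 0.254), which did not pass.

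Across the 7 genes, the count that passed was 0 in each of the 4 separate contrasts and in the interaction, 2 with the combined treatment, and 1, Dio2, in each averaged contrast. Of all genes, 0.0336% to 0.208% passed in the separate contrasts and 0.0134% in the interaction, so few genes of any kind passed there. The share was 2.18% with the combined treatment, 0.571% with the antibody over both vectors and 0.39% with the vector over both antibodies. At an unadjusted p under 0.05 the separate contrasts each held 2 of the 7, beside 7.91% to 14.3% of all genes, and the interaction held 0, beside 6.82%, and DESeq2 called 0 in all 5. The median log2 difference of the 7 with the combined treatment was 0.03 beside 0 over all genes, so the rise of Dio2 and Slco1c1 was not a shift of the whole list.

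Levels of different genes are compared here per kilobase of annotated exon, as CPM per kilobase over the 12 mice. Thra was the most abundant at 142 ± 7.20, followed by Crym at 62.1 ± 7.72 and Klf9 at 45.2 ± 2.30 (SD, n = 12). Dio2 was at 10.1 ± 1.29, Thrb at 6.87 ± 0.495, Slco1c1 at 6.56 ± 0.644 and Hr at 1.79 ± 0.218. The ranges over mice overlapped for the neighbours Crym and Klf9 (42.8 to 73.1 and 40.4 to 48.2) and for Thrb and Slco1c1 (5.95 to 7.44 and 5.59 to 7.55), so their order does not hold in every mouse. Dio2, at 7.54 to 11.9, lay above all Thrb values, and the 2 receptor genes were far apart. Unused exons of a gene model lower such a value, and this was not corrected. Relative to their means, Dio2, Crym and Hr varied most over the 12 mice, with coefficients of variation of 12.8%, 12.4% and 12.1%, and Thra and Klf9 least, with 5.07% and 5.09%.

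The variation among mice of the same group had its own pattern, in which the receptor and target genes took part. After subtraction of group means, Crym differed from its group by 0.39 in mouse 7 and by -0.39 in mouse 8 on the log2 scale. Hr had -0.23 and 0.21 and Thrb had -0.18 and 0.14 in the same mice, so these genes ran opposite to Crym. Thra ran with Crym, at 0.15 and -0.10. Mice 1 and 2 showed the same contrast at a smaller size for Crym (0.13 and -0.13), with Hr at -0.17 and 0.26. Within groups Pearson's r was 0.92 for Thra with Crym, -0.84 for Crym with Hr and 0.85 for Thrb with Hr. For Dio2 it was 0.86 with Hr and 0.82 with Klf9, so these genes ran together among mice of a group although Hr and Klf9 passed in no contrast. Slco1c1 stood apart from the other 6 genes, at -0.32 to 0.21. Over all 12 mice, where group differences enter, r of Dio2 with Slco1c1 was 0.71, against -0.17 within groups. These correlations describe 12 libraries in 4 groups that share depth and base composition trends, and the middle position of mice 3, 6, 9 and 12 lies within them.

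**Figure D5:**
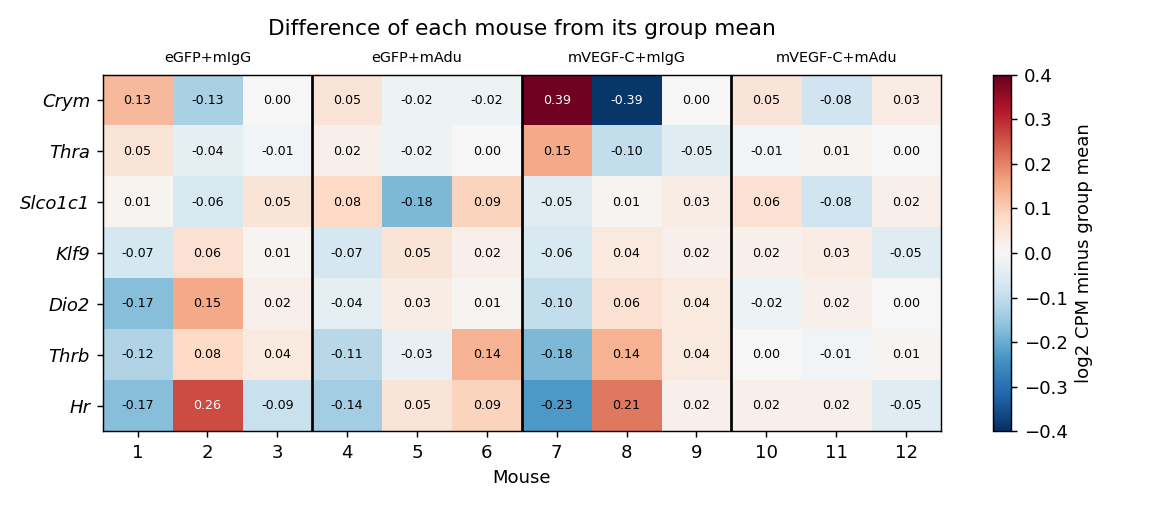
Difference of each mouse (x axis) from the mean of its group in log2 CPM (colour and printed value) for the 7 genes (y axis), with black lines between groups. Mice 7 and 8 stand at opposite ends for Crym (0.39 and -0.39) and Hr (-0.23 and 0.21), and Slco1c1 has its largest deviation in mouse 5 (-0.18).

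Among 11136 genes with a mean of at least 5 CPM, the genes whose log2 CPM followed each of the 7 most closely over the 12 libraries were listed by Pearson's r. For Dio2 they were Ppp1r3c, which targets protein phosphatase 1 to glycogen, at 0.98, Nr3c1, the glucocorticoid receptor gene, at 0.97, and Fam91a1 at 0.96, and within groups r was 0.94, 0.97 and 0.97. Slco1c1 was followed by Metap1 at 0.94, Nap1l2 at 0.93 and Wdr48 at 0.92, with 0.82, 0.77 and 0.88 within groups. For Crym the 3 genes were Cpne6 at 0.96, Fibcd1, a marker of CA1 pyramidal neurons, at 0.95 and Syt17 at 0.95. Thra was followed by Plppr2 and Pnmal2 at 0.96 and Mapk8ip2 at 0.95, and Thrb by Tet1 at 0.94, Zdhhc9 at 0.91 and Asb13 at 0.89. For Klf9 they were Plekha5 at 0.93 and Wasl and Camk1d at 0.91, and for Hr they were Trp53inp2 and Secisbp2l at 0.95 and Lipo3 at 0.94. The best of many genes is high by selection at this number of libraries, so r is given as a description.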

How the data were processed

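The values deposited by the authors are whole-number read counts for each gene in 12 libraries and were not normalized. The submitters' processing notes name the build mm10 and the tools STAR, featureCounts of Subread, edgeR, Trim Galore and FastQC. The strand setting, like tool versions and gene annotation, was not given in the sources used here. RNA was linearly amplified, per the labels' protocols, and counting precision refers to reads. The lowest total of a gene was 147 reads, and the filter on low counts removed none of the 14881 genes, so all 7 genes were tested. GENCODE M21 gave symbols, coordinates and exon lengths to 14791 identifiers and left 90 without a symbol.

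A single edgeR model (version 4.0.16, limma 3.58.1, R 4.3.3) with TMM scaling held all 12 libraries and estimated each group's mean. Each of 8 contrasts was tested by the two-sided quasi-likelihood test, and p-values were adjusted after Benjamini and Hochberg over the whole table, with a threshold of 0.05. The SE is the log2 fold change divided by the square root of the F statistic. CPM use TMM-scaled totals, and log2 CPM a prior count of 2. The script was run on simulated counts with independent libraries and no GC trend. That run does not bear on the GC trends or on the middle position of libraries 3, 6, 9 and 12. Alternatives were DESeq2 1.42.0 (its size factors in edgeR, and its Wald test), no filter, leaving out each library, leaving out libraries 3, 6, 9 and 12, and a GC and length correction chosen after seeing the data.

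The 7 genes and all lists were chosen with earlier results of these data known. Named genes are the 7, every member of a pathway list that passed (up to 4 per list and contrast), and Dio3, Ttr, Nr1d1, Rxra, Ncor1, Nrgn and Dbp. A further gene of this rule is not reported here. Aldh1l1, an astrocyte marker, and C1qa, a microglia marker, were named after their values were seen. Likeness was ranked among genes with a symbol that is no predicted gene name.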

Additional observations from a re-analysis of the deposited data

How the results depend on the processing

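No paired analysis was possible because the sample numbers run from 1 to 12 over the groups and no 2 groups share a number. Of the 56 log2 differences of the 7 genes over 8 contrasts, all kept their direction and their side of the threshold with DESeq2 size factors and with no filter, 55 with DESeq2's Wald test, 51 with GC and length correction and 47 without libraries 3, 6, 9 and 12. Numbers of genes called are given in the order antibody under eGFP, antibody under mVEGF-C, vector under mIgG, vector under mAdu, combined, interaction, antibody over both vectors and vector over both antibodies. With edgeR they were 5, 31, 6, 7, 324, 2, 85 and 58. DESeq2's Wald test called 47, 126, 20, 119, 455, 8, 237 and 155. Without libraries 3, 6, 9 and 12 they were 2, 0, 2, 0, 2, 0, 1 and 0, where the contrasts with 0 held 683, 758, 248 and 842 genes at an unadjusted p under 0.05. With GC and length correction they were 5, 38, 8, 4, 96, 2, 115 and 29. Leaving out 1 library gave 4 to 35, 2 to 138, 1 to 52, 0 to 110, 12 to 594, 0 to 36, 9 to 172 and 4 to 253 genes.

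Of the 7 genes, 2 were called with the combined treatment and 1 in each averaged contrast. Without libraries 3, 6, 9 and 12 the number was 0 in all 3, with fewer mice, and the log2 differences of Dio2 there were 0.48, 0.25 and 0.23. DESeq2's Wald test called 2 with the antibody over both vectors, and GC and length correction left 1 with the combined treatment and 0 with the vector over both antibodies. Leaving out 1 library gave 1 to 2, 0 to 2 and 0 to 2. Thra passed in 1 such fit (vector over both antibodies without mouse 7, adjusted p = 0.0463).

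The differences that changed sign were small and none had passed. Without libraries 3, 6, 9 and 12 they were Thra (-0.021) and Klf9 (0.008) for the antibody under mVEGF-C, Thrb (0.003) for the vector under mIgG, and Dio2 (0.006) and Hr (0.054) in the interaction. After GC and length correction they were Thra for the vector under mAdu (0.039) and the antibody over both vectors (0.003), and Hr with the combined treatment (0.026). With 1 library left out, ranges crossed 0 for the antibody under eGFP in Thrb (-0.079 to 0.05), Crym (-0.094 to 0.032) and Hr (-0.193 to 0.02). For the antibody under mVEGF-C they did in Thra (-0.048 to 0.083), Thrb (-0.001 to 0.155) and Crym (-0.049 to 0.336). For the vector they did under mIgG in Thrb (-0.076 to 0.08) and Hr (-0.016 to 0.23) and under mAdu in Crym (-0.048 to 0.017) and Hr (-0.032 to 0.077). With the combined treatment they did in Crym (-0.12 to 0.005), Klf9 (-0.008 to 0.055) and Hr (-0.161 to 0.052). In the interaction they did in Dio2 (-0.088 to 0.069), Slco1c1 (-0.119 to 0.008), Crym (-0.009 to 0.375) and Hr (-0.198 to 0.051). For the antibody over both vectors they did in Thra (-0.049 to 0.016), Thrb (-0.004 to 0.074) and Crym (-0.044 to 0.148). Fits with libraries left out had fewer mice, and the cause of these changes was not tested.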
